A study of Homo sapiens with 2 samples.

Results

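The genes described are those whose symbols begin with USP, RNF or TRIM and a digit, or with PSM, a letter from A to G and a digit, which are stems used for ubiquitin-specific proteases, RING finger proteins, tripartite motif proteins and proteasome subunits. Symbols with a hyphen, or with a pseudogene suffix of P and digits, were left out. Of 177 such genes named on the array, 118 were kept, selected on a mean log2 value over both arrays of 8.021 or more, which is the median over the 14884 named genes. They comprised 37 of 49 USP genes, 51 of 67 RNF genes, 29 of 60 TRIM genes and the 1 named PSM gene, among 7442 genes of any kind that passed the same filter. Membership thus used the symbol and the mean brightness of the brightest probe set, not the difference between the arrays. Nearest the filter were TRIM72 and PSMC3IP on the inside, with means of 8.032 and 8.063, and TRIM52 and TRIM74 on the outside, with means of 7.968 and 7.961.

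The label of this gene group names the proteasome, but the genes named on the array include no proteasome subunit with a PSM symbol. The 1 PSM gene was PSMC3IP, which carries the stem because it binds a proteasome subunit and which is itself a cofactor of meiotic recombination. The RefSeq gene table holds 48 protein-coding genes with a PSM stem and nothing after the digits, and 0 of them were named here, so no catalytic or regulatory proteasome subunit with a PSM symbol was analysed here. USP6NL, named for its likeness to the N-terminal part of USP6, is a regulator of Rab GTPases and not a deubiquitinase.

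Expression was measured in UACC62, an established human melanoma line kept in serum-containing medium. The control culture received a non-targeting siRNA and the other an siRNA directed at FOSL1, and the cells were collected on day 3. FOSL1 is a FOS family subunit of the transcription factor AP-1. Each condition had 1 array, so no difference had a replicate check and no test was run. Effects of the FOSL1 siRNA on other targets cannot be told apart from those of lower FOSL1. FOSL1 itself measured 11.90 on the control array and 10.38 on the FOSL1 siRNA array (log2), 2.88-fold lower. Of 10 melanocyte lineage markers, 9 were named and 6 passed the filter (MITF, MLANA, PAX3, S100B, SOX10 and TYR), while KIT, PMEL and TYRP1 were below it. Of the named markers of other tissues, KRT18 passed among 6 of keratinocytes and other epithelia, and CD68 among 5 of fibroblasts, endothelium and leukocytes.

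Ubiquitin is a small protein that is attached to other proteins by a relay of E1, E2 and E3 enzymes. An E3 ligase picks the substrate, and most RNF and TRIM proteins are E3 ligases that recruit the E2 through a RING finger, a zinc-binding fold. Deubiquitinases such as the USP enzymes cut ubiquitin off again, and the proteasome degrades proteins that carry suitable chains. In melanocytes and melanoma, proteins controlled in this way include the lineage factor MITF.

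The 3 larger groups lay at different positions around 0. All differences are log2 values with FOSL1 siRNA minus those with control siRNA. The median of the USP genes was 0.13, that of the RNF genes was -0.06 and that of the TRIM genes was -0.01, beside -0.0008 over all 7442 genes. Above 0 lay 26 of 37 USP genes (70.3%), 20 of 51 RNF genes (39.2%) and 13 of 29 TRIM genes (44.8%), beside 49.8% of all genes. The positions of the groups were not tested against each other.

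Differences of single members were small. None of the 118 members that passed the filter differed by 1.5-fold, a size that 1.13% of all genes reached upward and 0.766% downward. At 1.3-fold, the size used for counts here, 2 of 37 USP genes were higher and 0 lower, 0 of 51 RNF genes were higher and 2 lower, and 0 of 29 TRIM genes were on either side. Of all genes, 4.82% were higher by this size and 3.68% were lower, so these counts were close to the background or under it. At 1.2-fold, 6 USP genes were higher and 0 lower, and 2 RNF genes were higher and 8 lower. TRIM had 3 higher and 2 lower, against a background of 11.1% higher and 9.78% lower. As a scale for error within the arrays, the differences of the 2 brightest probe sets of a gene past the filter were compared over 195 genes. Probe sets with identical values were counted once. The SD of the gap between the 2 differences, divided by the square root of 2, gave an SD per probe set of 0.177. In absolute size, 21 of the USP, 32 of the RNF and 19 of the TRIM differences lay under that SD, as did 61.6% of all genes.

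**Figure D1:**
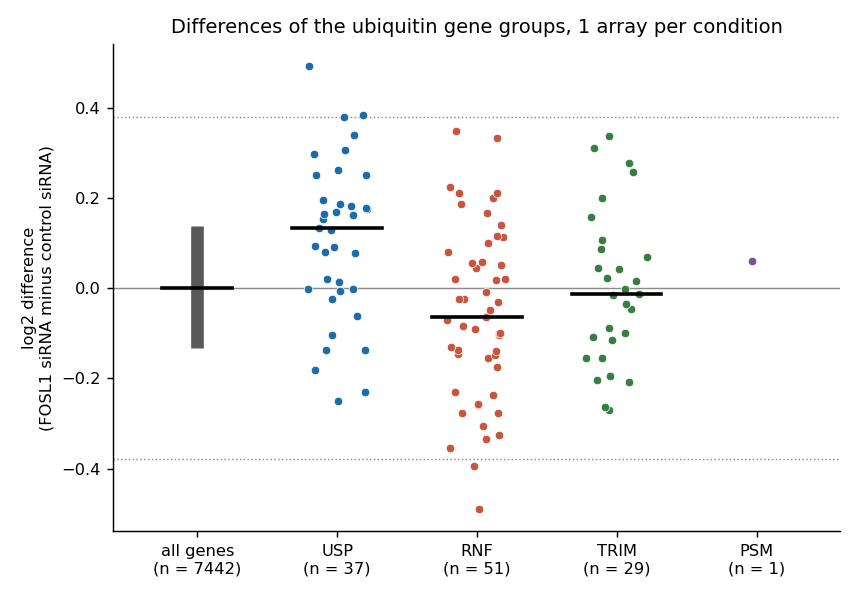
Log2 differences (vertical axis, FOSL1 siRNA minus control siRNA) of the USP, RNF, TRIM and PSM genes that passed the filter, 1 point per gene. Black bars mark the medians of all genes and of the USP, RNF and TRIM groups, and PSM, with 1 gene, has no bar. The grey bar on the left spans the middle 50% of all 7442 genes, from -0.13 to 0.14, dotted lines mark 1.3-fold, and the USP points sit higher (median 0.13) than the RNF points (median -0.06).

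Among the USP genes, USP33 had the largest difference. USP33, which acts on receptors, measured 8.28 on the control array and 8.78 on the FOSL1 siRNA array (log2). It was 1.41-fold higher (chromosome 1, 77695987 to 77759852 in GRCh38.p14, probe set 16688708). USP12 had log2 values of 9.40 and 9.79, in the same order of arrays, and a difference of 0.383 (chromosome 13, 27066156 to 27171811). These were the 2 USP genes past 1.3-fold among those that passed. USP8, an enzyme of the endosome that controls the fate of internalised receptors, had log2 values of 10.41 and 10.79 and lay just under that size with a difference of 0.38. USP45, which acts on the repair nuclease subunit ERCC1, had a difference of 0.34, and USP38 one of 0.31. On the other side USP21, a histone H2A deubiquitinase, had the lowest difference of -0.25, with log2 values of 10.19 and 9.95. It was the farthest of the 11 USP genes below 0, and none of them reached 1.2-fold.

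**Figure D2:**
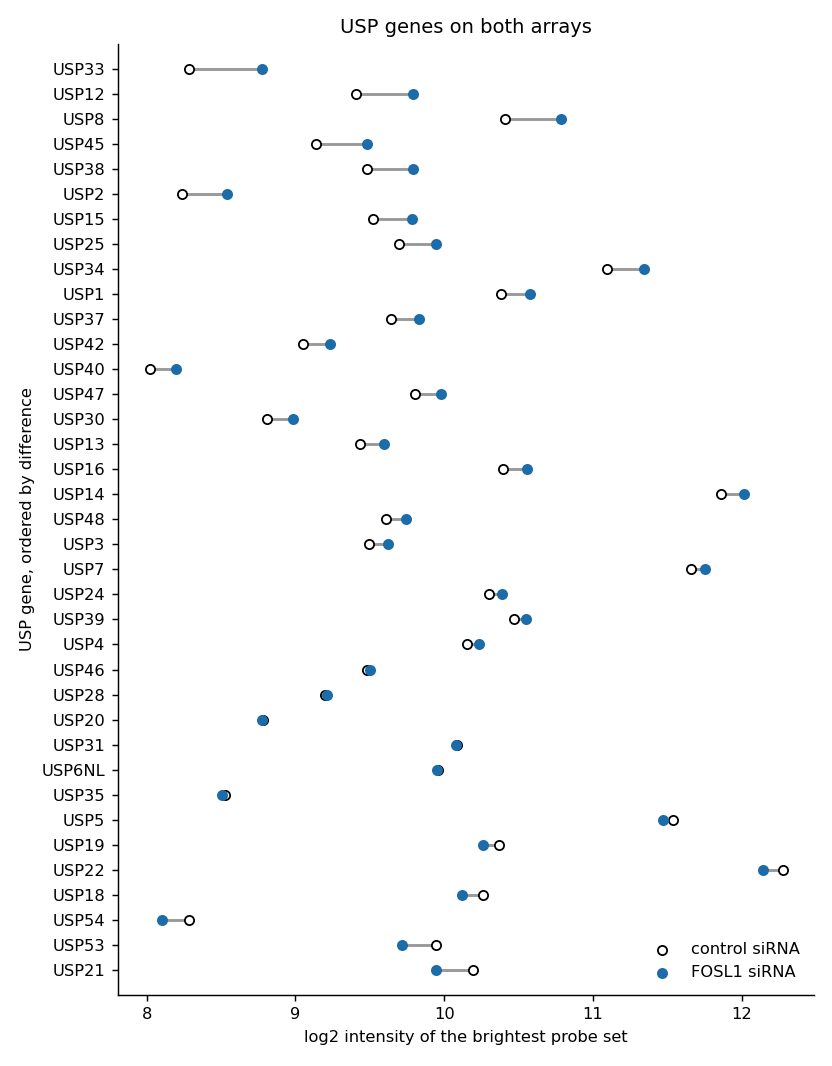
Log2 intensity (horizontal axis) of each of the 37 USP genes on the control siRNA array (open circles) and the FOSL1 siRNA array (filled circles), ordered by difference on the vertical axis. The filled circle lies to the right in 26 genes, farthest in USP33 (8.28 to 8.78), and to the left in 11, farthest in USP21 (10.19 to 9.95).

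The values of some related USP enzymes can be set side by side as a description. USP20, USP25 and USP46 are named here for their kinship and were chosen after their values were seen. USP1, USP12 and USP46 work with the same activating partner, WDR48, and had differences of 0.20, 0.38 and 0.02. USP33 and its close relative USP20 had 0.49 and -0.0018. USP25 and USP28, also a pair of relatives, had 0.25 and 0.01, and USP15 and USP4, which act on TGF-beta receptor signalling, had 0.26 and 0.08. The 4 endosome, membrane and TGF-beta enzymes that passed the filter (USP4, USP8, USP15 and USP33) were all above 0, with a median of 0.32. Of all genes that passed, 49.8% were above 0. The median span of these 4 genes was 76.9 kb, against 27.4 kb for all genes. With the trend on gene span removed, as described below, their median was 0.24 and USP4 was at 0.02.

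The enzymes of DNA repair and checkpoint control had differences from 0.01 to 0.20. USP1, which deubiquitinates FANCD2 and PCNA, had log2 values of 10.38 and 10.58, and USP47 and USP48 had differences of 0.17 and 0.13. With USP7 and USP28, the 5 that passed had a median of 0.13. That is the value of USP48, which is also the median gene of all 37 USP genes, so the 2 medians are not independent. With the span trend removed the median of the 5 was 0.06, and USP28 was at -0.05. USP7, which stabilises both MDM2 and p53, had log2 values of 11.66 and 11.75 and a difference of 0.09.

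Chromatin enzymes lay on both sides of 0. USP16 and USP3, which remove ubiquitin from histone H2A, had differences of 0.16 and 0.13, whereas USP21 was at -0.25 and USP22, the deubiquitinase of the SAGA coactivator complex, at -0.14 with log2 values of 12.27 and 12.14. Of the USP enzymes closest to the proteasome and to free ubiquitin, USP14, which is bound to the proteasome, was at 0.15 and USP5, which takes apart unanchored chains, at -0.06. USP13, a relative of USP5 that has been described as a deubiquitinase of MITF in melanoma, was at 0.16, with log2 values of 9.43 and 9.60. USP30, of the mitochondrial outer membrane, was at 0.17 and USP19, anchored in the endoplasmic reticulum, at -0.10.

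Of the USP proteins long described as inactive, USP53 and USP54 had differences of -0.23 and -0.18 and the splicing factor USP39 had 0.08. USP18, which removes the ubiquitin-like modifier ISG15 and is induced by interferon, was at -0.14. USP2, which has been described as a stabiliser of cyclin D1, had log2 values of 8.24 and 8.54 and a difference of 0.30. That value rests on its brighter probe set alone: its dimmer probe set gave -0.41 at log2 values of 6.36 and 5.95, and the mean of both gave -0.06.

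Gene span moved with these differences. USP genes were long, with a median span of 77.7 kb against 27.4 kb for all genes, and 29 of 37 fell in the 2 longest of 5 equal span classes of all genes. Over all 7442 genes the difference had a Pearson correlation of 0.328 and a Spearman correlation of 0.345 with log10 span, given as a description across genes of the same 2 arrays, and the median difference went from -0.12 in the shortest class to 0.09 in the longest. Within the longest class, 12 of 15 USP genes were above 0 with a median of 0.17, beside 68.2% of all genes and a median of 0.09. Within the class next to it the USP median was 0.08 for 14 genes, beside 0.05. With the trend on span removed, the USP median was 0.06 with 24 of 37 above 0, against -0.0041 and 49.1% for all genes, and USP33 was the 1 USP gene still past 1.3-fold, at 0.43. USP12 was then at 0.31 and USP8 at 0.31. The part of span in these values was not tested further.

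**Figure D3:**
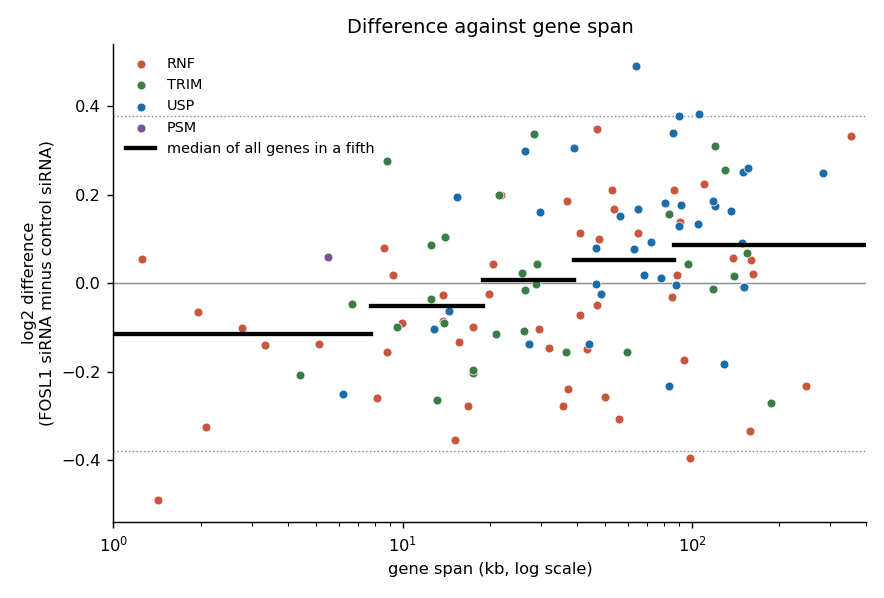
Log2 difference (vertical axis, FOSL1 siRNA minus control siRNA) of each member against its gene span in kb (horizontal log axis), with black bars for the median of all genes in each of 5 span classes and dotted lines at 1.3-fold. The bars climb from -0.12 to 0.09, and most USP points lie at long spans, where 12 of 15 in the longest class are above 0.

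The RNF genes lay mostly below 0. RNF225 had the lowest difference of the 118 members that passed, -0.49, with log2 values of 9.44 and 8.95, and was 1.40-fold lower (chromosome 19, 58395656 to 58397079). RNF157, a relative of the ligase MGRN1, had log2 values of 11.43 and 11.04 and was 1.31-fold lower (chromosome 17, 76142474 to 76240493). These were the 2 RNF genes past 1.3-fold. With the trend on span removed RNF157 was at -0.47, while RNF225, a gene of 1.42 kb, was at -0.37 and just short of that size. RNF207, RNF144A, RNF151 and RNF182 followed with differences of -0.35, -0.33, -0.32 and -0.31. With the span trend removed RNF144A was at -0.43, past 1.3-fold. With FOSL1 siRNA the log2 value of RNF151 was 7.95, under the filter.

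The RBR ligases, which pass ubiquitin through a catalytic cysteine of their own, had a median of -0.07 over the 5 that passed, or -0.11 with the span trend removed. RNF144A was lowest, with log2 values of 10.51 and 10.18 and a difference of -0.43 when the span trend was removed. RNF19B and RNF14 were at -0.28 and -0.07, RNF31, the catalytic subunit of the linear ubiquitin chain complex, was at -0.03, and RNF216 was at 0.02. Of the ligases of chromatin and DNA damage, RNF169, which binds ubiquitin-marked histones at breaks, was at -0.17 and RNF4, which targets SUMO-modified proteins, at -0.05. RNF111, known as Arkadia, which enhances TGF-beta signalling, was at 0.22.

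The RNF genes with positive differences included several ligases of membranes. RNF185, of the endoplasmic reticulum, had log2 values of 8.92 and 9.27 and a difference of 0.35, but its dimmer probe set gave -0.05 and the mean of both 0.15. RNF150, a transmembrane ligase, was at 0.33, from a control value of 7.97 that was under the filter. RNF145, a sterol-responsive ligase of the endoplasmic reticulum, and RNF152, a ligase of the lysosome, were both at 0.21. Membrane ligases also lay on the other side, with RNF19B lowest at -0.28, RNF167 at -0.14 and RNF139 at -0.08. The 10 listed ones that passed had a median of 0.05 with 6 above 0, beside 49.8% of all genes. With the span trend removed their median was 0.0062. Of the regulators of WNT signalling, RNF146, which degrades axin marked with poly-ADP-ribose, was at 0.20 and RNF43, which removes frizzled receptors, at 0.11. With the span trend removed RNF146 was at 0.20 and RNF43 at 0.05.

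**Figure D4:**
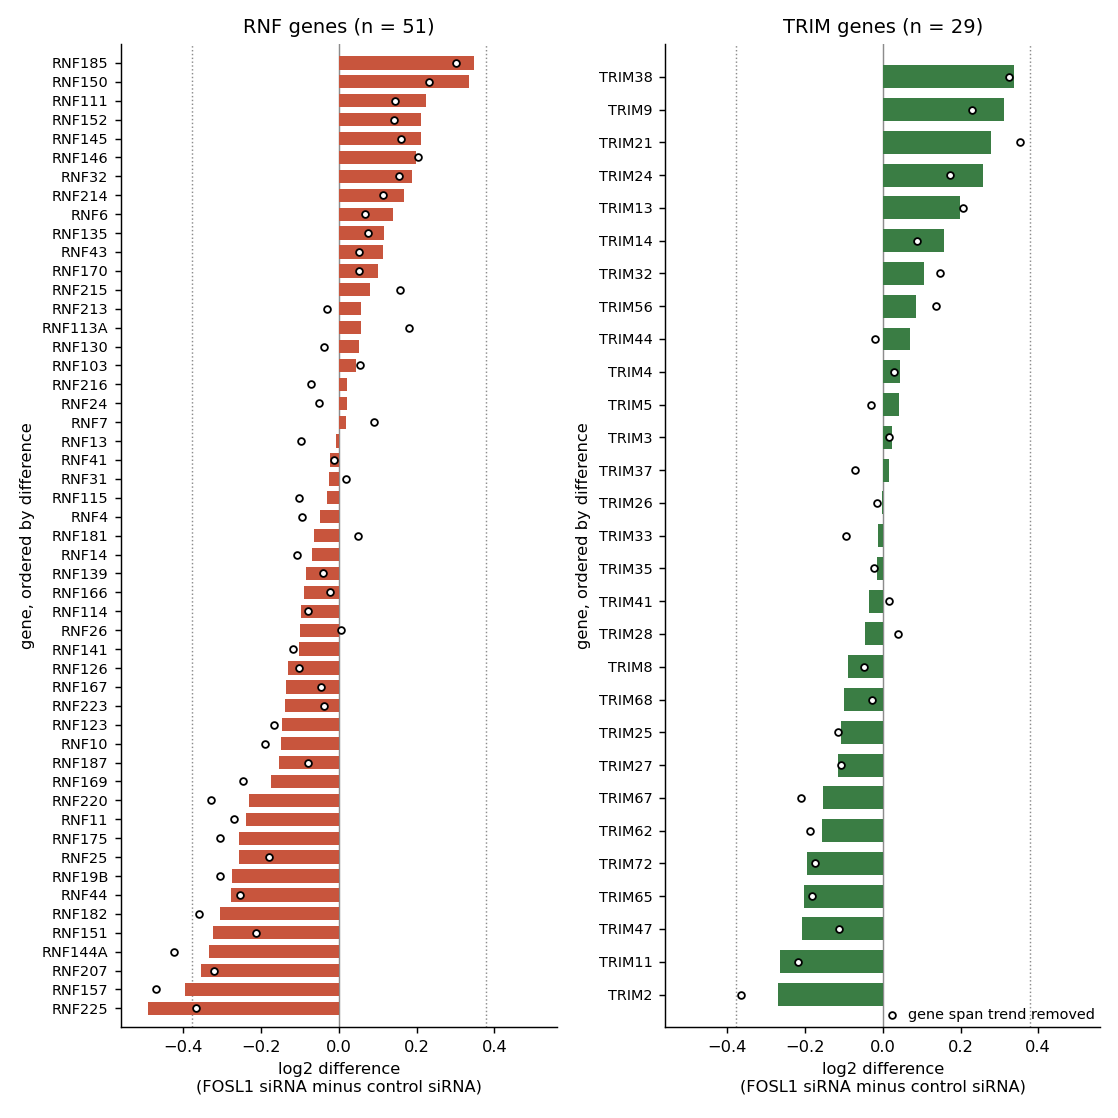
Log2 differences (bars, horizontal axis, FOSL1 siRNA minus control siRNA) of the 51 RNF and 29 TRIM genes, ordered on the vertical axis, with circles for the same genes after the trend on gene span was removed and dotted lines at 1.3-fold. RNF225 (-0.49) and RNF157 (-0.39) are the bars past the dotted line, and the TRIM bars run from -0.27 to 0.34.

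The TRIM genes lay on both sides of 0, from -0.27 to 0.34, and none of the 29 that passed reached 1.3-fold. TRIM38, an interferon-induced ligase that acts on innate immune signalling, was highest with log2 values of 10.21 and 10.55, 1.26-fold higher (chromosome 6, 25962802 to 25991231). TRIM9, a ligase of neurons, had log2 values of 10.46 and 10.77 and a difference of 0.31. TRIM21, a cytosolic antibody receptor, was at 0.28 with log2 values of 8.30 and 8.57, and at 0.35 with the span trend removed. TRIM13, a ligase of the endoplasmic reticulum, was at 0.20. On the negative side TRIM2, which ubiquitinates neurofilament light chain, had log2 values of 9.80 and 9.53 and a difference of -0.27, and TRIM11 had -0.26. TRIM47 and TRIM65, which lie 0.955 kb apart on chromosome 17, had differences of -0.21 and -0.20, and TRIM72 had -0.19. Of the ligases with a COS box, a part that binds microtubules, TRIM9 and TRIM67 passed the filter, and TRIM67 was at -0.15, opposite in sign to TRIM9. With FOSL1 siRNA the log2 values of TRIM67 and TRIM72 were 7.99 and 7.93, under the filter.

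The antiviral and interferon-related TRIM genes had a median of 0.09 over the 7 that passed. Of the 7, 5 were above 0, beside 49.8% of all genes that passed. Besides TRIM38 and TRIM21, TRIM14, an adaptor of antiviral signalling, was at 0.16, TRIM56 at 0.09 and TRIM5, which blocks retroviral capsids, at 0.04. TRIM25, which activates the RNA sensor RIG-I, was at -0.11 and TRIM26 at -0.0016. Adding USP18 and RNF213 to the interferon-induced TRIM genes gave 7 members that passed with a median of 0.06, between -0.14 for USP18 and 0.34 for TRIM38. That median was -0.03 when the span trend was removed.

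Chromatin TRIM proteins form a family of transcriptional cofactors. TRIM24, a cofactor of nuclear receptors, was at 0.26 with log2 values of 10.12 and 10.38. TRIM28, the corepressor of KRAB zinc finger proteins, had log2 values of 12.57 and 12.53 and a difference of -0.05, and TRIM33, which acts on SMAD proteins, was at -0.01. Of the NHL repeat proteins, TRIM32 was at 0.11 and TRIM3 at 0.02, opposite in sign to TRIM2. TRIM27, singled out after its values were seen, had 8 probe sets, some with identical values, and all 8 lay between -0.16 and -0.08. Because of the identical values they do not count as 8 separate measurements.

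AP-1 binds a short DNA motif, and the promoter windows of the members were searched for it because FOSL1 is an AP-1 subunit. The windows, from RefSeq on GRCh38.p14, run from 250 bases before to 50 bases after a transcription start, and were held for 31 USP, 43 RNF and 21 TRIM genes. The motif TGACTCA or its reverse complement TGAGTCA was found in 0 of 41 USP, 1 of 69 RNF and 3 of 28 TRIM windows, beside 3.38% of the windows of genes that passed and 4.95% of all windows. The 4 stretches are shown, 5′ to 3′ on the strand of the gene, because they are the members that carry the motif, which is in capitals.
TRIM2: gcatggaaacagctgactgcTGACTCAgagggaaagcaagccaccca
TRIM62: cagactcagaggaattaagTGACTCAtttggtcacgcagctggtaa
TRIM44: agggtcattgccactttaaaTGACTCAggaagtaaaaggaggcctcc
RNF43: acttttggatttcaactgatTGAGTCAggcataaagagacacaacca
The stretches lie at chr4:153257268-153257314 (plus strand), chr1:33176755-33176800 (minus), chr11:35662686-35662732 (plus) and chr17:58402742-58402788 (minus). The matches begin at positions -91, -231, -69 and -47 from the start, and the starts used for TRIM2, TRIM62 and RNF43 lie inside the gene's span. The 4 genes had differences of -0.27, -0.16, 0.07 and 0.11, on both sides of 0. The CRE motif TGACGTCA was in 0 USP, 2 RNF and 0 TRIM windows, beside 2.88% of the windows of genes that passed. The CCAAT motif (CCAAT or ATTGG) was in 29.3% of USP, 34.8% of RNF and 39.3% of TRIM windows, beside 34.8%. A match describes the letters in the window and not binding, and no match says only that these letters are not in it.

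Other genes of the ubiquitin pathway gave a wider view. Of 80 listed genes outside the USP, RNF, TRIM and PSM symbols that passed the filter, 50 were above 0 with a median of 0.05. Of these 80, 1 was higher by 1.3-fold or more and 0 lower. Among all genes that passed, 49.8% were above 0, 4.82% were higher by that size and 3.68% lower, so the counts at 1.3-fold were under the background. With the span trend removed, 42 of the 80 were above 0 with a median of 0.02, beside 49.1% of all genes above 0. The gene past 1.3-fold was HECTD2, a HECT ligase, with log2 values of 8.09 and 8.65 and a difference of 0.56. HERC4 and HACE1, of the same class, were at 0.28 and 0.27, and WWP2 was at -0.18. Cullins and their partners, without RNF7, had 10 of 12 above 0 with a median of 0.06, from -0.18 for CUL2 to 0.27 for CUL5. With the span trend removed, 6 of the 12 were above 0 with a median of 0.0036. The HECT ligases had a median of 0.05, which turned to -0.04 with the span trend removed. The ubiquitin gene UBB and the E1 enzyme UBA6 were at 0.22 and 0.08. E2 enzymes had 10 of 18 above 0, from -0.25 for UBE2D4 to 0.26 for BIRC6.

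Genes listed as deubiquitinases outside the USP family, not all of them established as such, had a median of 0.10. Above 0 lay 10 of 15, beside 49.8% of all genes that passed. STAMBPL1, a metalloprotease specific for lysine-63 chains, was highest with log2 values of 9.86 and 10.21 and a difference of 0.35. ALG13 was at 0.32 and UCHL5, which sits on the proteasome, at 0.29, and OTUD7B was lowest at -0.28. The median span of this list was 43.2 kb, against 27.4 kb for all genes, and with the span trend removed its median difference was 0.06.

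Partners and regulators of the proteasome had a median of -0.025, with 7 of 15 above 0, beside 49.8% of all genes. With the span trend removed the median was -0.05. ADRM1, a ubiquitin receptor of the proteasome, was lowest with log2 values of 11.85 and 11.63 and a difference of -0.22. NFE2L1, the transcription factor that induces proteasome genes when proteasome activity is low, was at -0.16. NPLOC4, a cofactor of the unfolding ATPase VCP, was at -0.13. UBQLN2 and UBQLN1, shuttles for ubiquitinated proteins, were highest at 0.14 and 0.12. PSMC3IP itself had log2 values of 8.03 and 8.09 and a difference of 0.06.

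**Figure D5:**
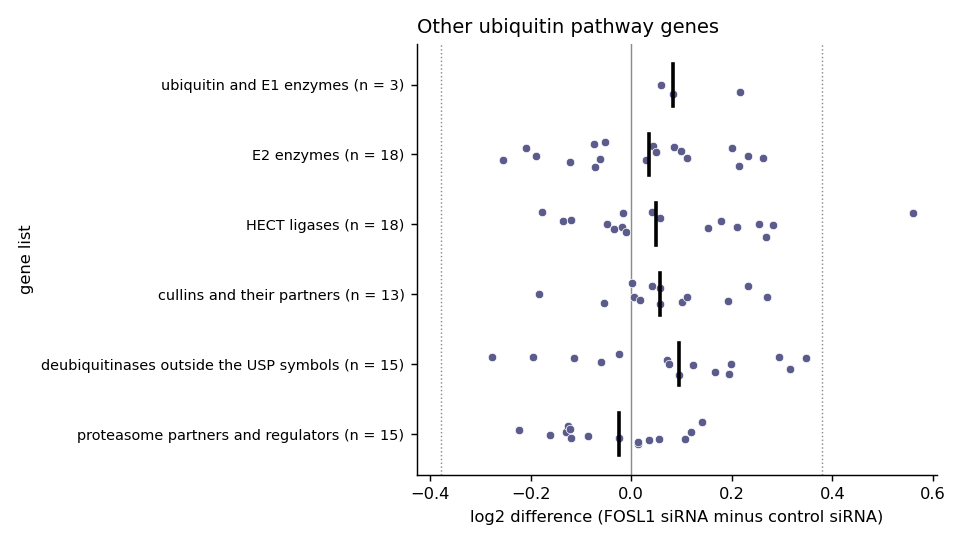
Log2 differences (horizontal axis, FOSL1 siRNA minus control siRNA) of ubiquitin pathway genes in 6 lists (vertical axis; the cullin list includes RNF7), 1 point per gene that passed the filter, with a bar at each median and dotted lines at 1.3-fold. HECTD2 (0.56) is the point past the dotted line, and list medians run from -0.025 to 0.10.

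The 59 members under the filter had means under the filter and were not used in the counts. Of these, 22 were above 0 and 36 below, 2 were higher by 1.3-fold or more and 6 lower. Among all 7442 genes under the filter 41% were above 0, 6.91% were higher by that size and 9.27% lower, so these counts were near that background or under it. The higher ones were TRIM16 (7.29 and 7.79) and USP49 (5.86 and 6.30), and the lower ones included USP44 (6.08 and 5.59). TRIM42 (5.45 and 4.66) and TRIM64C (6.85 and 6.22) were lower by more than 1.5-fold. USP17L12 and USP17L9P, of a family of near-identical copies, had the same values and cannot be told apart.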

How the data were processed

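Per the labels' protocols, 100 ng of total RNA from each culture was amplified and biotin-labelled with whole-transcript kits for an Affymetrix array. The authors deposited 1 value per probe set and array for 53427 probe sets, taken here as log2 intensities from their range of 2.226 to 14.81. The log base, background correction and probe summary are not given in the sources used here. Sorted values of the arrays differed by at most 0.0301 at any rank, so a shift in total RNA could not be seen. Gene symbols came from the platform annotation (1 symbol for 16098 probe sets; 37329 were unnamed) and spans, promoters and coordinates from RefSeq, GRCh38.p14, where all 14884 genes matched by Entrez ID. The brightest probe set stood for a gene. With 1 array per condition there was no test and no p-value. Of the members that passed the filter, the 6 with the largest differences in each direction per group and all past 1.3-fold were named. Also named were the 2 largest differences of each role list, further list members by choice and up to 3 genes per direction of other pathway lists. Members nearest the filter, members whose probe sets disagreed in sign and some members under the filter were named too. Any others are marked in the text. Members and lists were chosen with earlier results of these data known. Trends were removed by lowess (fraction 0.3) in statsmodels 0.14.6 under Python 3.11.15. Counting and trend removal were tested on simulated data.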

Additional observations from a re-analysis of the deposited data

How the results depend on the processing

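All alternatives were planned. Group medians lay between 0.06 and 0.14 for USP, -0.08 and -0.05 for RNF, and -0.03 and -0.0016 for TRIM genes over 8 alternatives, and kept their sign. The PSM value, for 1 gene, lay between 0.06 and 0.15 over 6; the 75th percentile filter and symbols with nothing after the digits left no PSM gene. The counts at 1.3-fold were small, so single genes changed them. USP genes at least 1.3-fold higher numbered 1 with the span trend removed, 1 with the filter at the 75th percentile, 3 with quantile normalization, 3 with no filter, 6 at 1.2-fold and 0 at 1.5-fold, against 2, and 1 was lower with no filter. RNF genes at least 1.3-fold lower numbered 1 at the 75th percentile filter, 8 at 1.2-fold and 0 at 1.5-fold, and 2 were higher at 1.2-fold. With the span trend removed 2 RNF genes were still lower, but RNF144A took the place of RNF225. TRIM genes numbered 1 higher and 5 lower with no filter, and 3 higher and 2 lower at 1.2-fold. Fewer or more genes entered with the filter, and the fold sets the count by construction. Of 118 members, 14 changed sign with the span trend removed, with moves of at most 0.124, and 1 (USP2) as a mean of probe sets. Centring, quantile normalization and the trend on mean value changed 0 signs. No paired analysis was possible because each condition had 1 array. Array signal, not read depth, limits dim members, and variation between cultures was not measured.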
